A study of Drosophila melanogaster with 9 samples.

Results

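The comparison of M3 + 10% FEx with MB10 used 6 of the 9 RNA-seq libraries of the series, 3 of each medium, and all 17562 genes of the count table. The media, as the sample labels name them, chose the libraries, and no measured value was used. S2R+ is a Drosophila melanogaster line of hemocyte-like character (hemocytes are the blood cells of the fly) that was derived from Oregon-R embryos. MB10 is Shields and Sang M3 medium with bactopeptone, yeast extract and 10% serum. M3 + 10% FEx holds neither the serum nor the added bactopeptone and yeast extract, and carries in their place 10% of an extract (FEx) made by homogenizing adult flies, heating the homogenate and filtering it. The extract medium was the home of 1 line, adapted to it step by step, and a 2.5% FEx line was derived from that one. All changes of the medium came together and with the adaptation, so their effects cannot be told apart. The 3 libraries of a medium came from cells collected in triplicate, and the sources do not say how far the cultures were separate, so the p-values measure the spread between these samples.

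Serum supplies a cultured cell with growth factors, lipoprotein lipids, iron bound to transferrin, and proteins that coat the dish. A fly extract supplies soluble molecules of the fly itself. Cells meet such a change with sensors of nutrients, of damaged proteins and of bacterial cell walls, and with the adhesion receptors that hold them to each other and to the matrix. The families below are ordered along that path, from the cell surface and matrix to folding, metabolism, mitochondria, detoxification, immunity and signalling.

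Library totals ran from 20694827 to 29076620 counts, so that 3 counts in 1 library stood for 0.106 to 0.151 CPM (counts scaled to a common library size by the TMM method of edgeR). More genes had at least 1 count in the 10% FEx libraries (11657 to 11971) than in MB10 (11017 to 11143). MB10 replicate 1 stood apart by its mitochondrial RNA, and the results on mitochondrial RNAs are given with and without it. RNA carried in by the extract was looked for with genes of adult organs. Of 21 genes of adult fat body, gut and glands, none passed the expression filter, and their sum was 1.08 to 1.16 CPM in M3 + 10% FEx and 1.04 to 1.40 CPM in MB10. The trypsin genes alphaTry and betaTry and the larval serum protein gene Lsp2 had no count in any library, and gammaTry had 1 count in 1 library of M3 + 10% FEx. All 13 testis genes were at or below 1 CPM in every library. Of 18 genes of adult eye and muscle, 15 were too, and the exceptions included norpA (90.7 to 128 CPM in MB10 and 126 to 139 CPM in M3 + 10% FEx) and TpnC4 (79.8 to 85.0 CPM and 51.3 to 55.1 CPM), which every medium expressed. Of the 4 tested, none was called, and 1 was higher and 1 lower without the fold threshold.

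Of 8705 genes tested, 639 (7.34%) were called higher in M3 + 10% FEx and 316 (3.63%) were called lower. A call needed an adjusted p below 0.05 together with a change of more than 1 on the log2 scale. Without the fold threshold, 2218 genes (25.5%) were higher and 2405 (27.6%) lower, and the median log2 fold change over all genes tested was -0.04. The count of higher genes fell to 336 when every library had to hold at least 10 counts. Where a list count below stands alone, the shares of all genes given here are the values to set beside it.

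**Figure D1:**
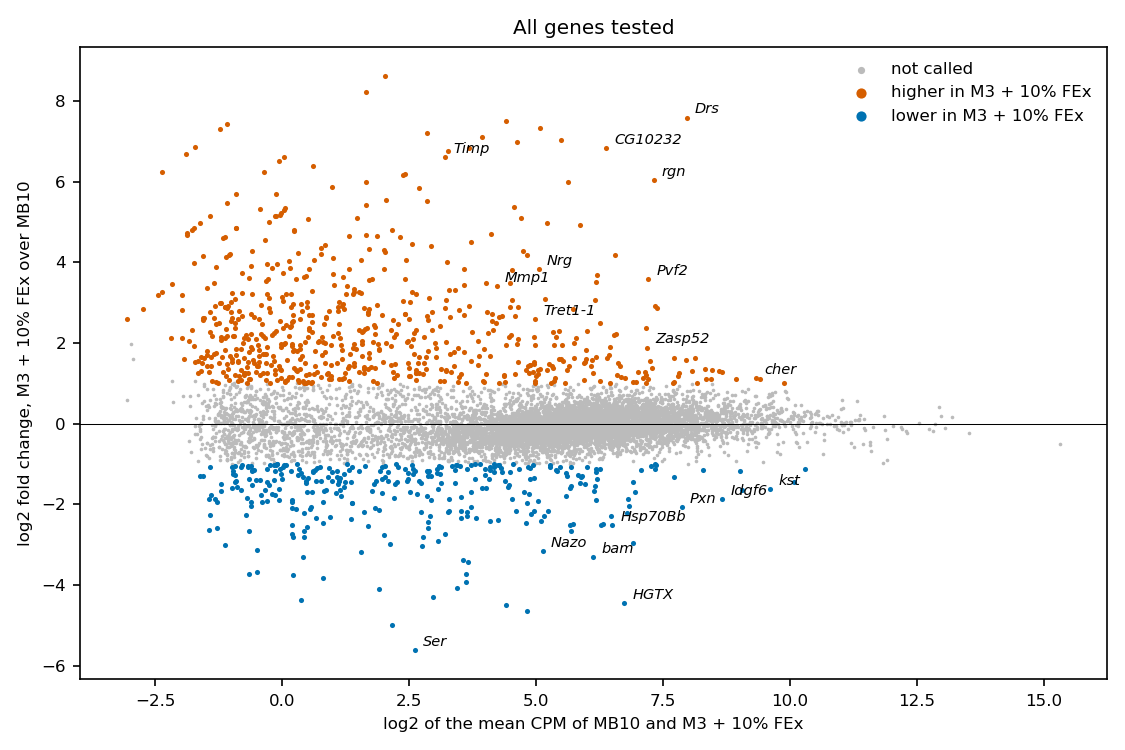
Each point is 1 of the 8705 genes tested. The x axis is log2 of the mean CPM of both media, the y axis is the log2 fold change of M3 + 10% FEx over MB10, and colours mark the 639 genes called higher and the 316 called lower. Rises reach beyond 8 on the log2 scale among weakly expressed genes, and the steepest fall is that of Ser at -5.62.

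Among the 12 strongest rises with at least 10 CPM in each 10% FEx library, 4 were antimicrobial peptide genes (Drs, AttA, AttB and CecA2), and the other 8 came from elsewhere. The regeneration gene rgn (FBgn0261258, chromosome arm 3L from 21382501 to 21424416, BDGP6.54) stood at 4.73, 5.14 and 4.28 CPM in MB10 and at 310, 303 and 327 CPM in M3 + 10% FEx. Its groups were far apart (log2 fold change 6.05, standard error 0.09, adjusted p = 5.99e-13), and its exons overlap those of barc on the opposite strand. The TRP cation channel gene pain had a log2 fold change of 6.98 and the metalloprotease inhibitor gene Timp one of 6.60. The other 5 were CG14567, CG7778, CG10359, CG10232 and CG12991, at 6.77 to 7.32 on the log2 scale. CG10232 was the most abundant of these, at 1.71, 1.30 and 1.35 CPM in MB10 and 158, 170 and 169 CPM in M3 + 10% FEx. An exon of pain overlaps NaCP60E and an exon of Timp overlaps Syn on the opposite strand. CG12991 shares exonic bases with CG12992 on its own strand.

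The 12 strongest falls with at least 10 CPM in each MB10 library were those of Ser, CG6999, CG32706, HGTX, Ptp52F, betaNACtes3, betaNACtes6, mamo, pon, Rab23, bam and Nazo. HGTX (FBgn0040318, arm 3L from 14583222 to 14599540), which encodes a homeobox transcription factor, was the most abundant of them in MB10 at 210, 202 and 199 CPM. It stood at 9.92, 8.65 and 9.40 CPM in M3 + 10% FEx (log2 fold change -4.44, standard error 0.08, adjusted p = 1.18e-12) and at a mean of 9.47 CPM in M3 + 2.5% FEx. The germline differentiation factor gene bam (arm 3R from 25243039 to 25245109) was at 121, 135 and 125 CPM in MB10 and at 13.4, 13.1 and 11.8 CPM in M3 + 10% FEx. Its exons overlap those of CG11854 on the opposite strand. Of the 7 germline and ovary markers tested, bam was the 1 called, and 2 were higher without the fold threshold. The falls of pon, the partner of Numb in asymmetric division, and of mamo, a zinc finger factor, were -3.43 and -3.72 on the log2 scale. For mamo the direct comparison placed M3 + 10% FEx below M3 + 2.5% FEx as well (log2 fold change -1.81, adjusted p = 9.39e-06).

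Many genes of cell-cell junctions rose. Of 35 tested members of the septate and adherens junctions, 11 were called higher (31.4%, against 7.34% of all genes) and none lower, and 23 were higher without the fold threshold against 1 lower. The median log2 fold change of the list was 0.38, beside -0.04 over all genes. Nrg (arm X from 8517373 to 8555170) encodes neuroglian, an adhesion molecule of the septate junction. It stood at 4.22, 4.62 and 4.19 CPM in MB10 and at 63.0, 61.5 and 61.5 CPM in M3 + 10% FEx. The groups were well separated and the spread within each was small (log2 fold change 3.83, standard error 0.08, adjusted p = 6.65e-12). M3 + 2.5% FEx lay between them at 19.1 CPM, below M3 + 10% FEx by 1.70 on the log2 scale in the direct comparison.

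Fas3, the fasciclin of epithelial lateral membranes, rose from 0.452, 0.173 and 0.0902 CPM to 6.84, 5.81 and 5.50 CPM (log2 fold change 4.69, standard error 0.29). The homophilic adhesion gene ed (3.31), the neural adhesion gene Fas2 (2.45), the gliotactin gene Gli of tricellular junctions (2.39) and bark (2.13), which acts at the same corners, rose in log2 fold change too. The abundant members moved less. The polarity gene scrib was at 132, 144 and 131 CPM in MB10 and at 430, 415 and 423 CPM in M3 + 10% FEx (1.64, standard error 0.06). Lac rose by 1.63, cora by 1.10, crb by 1.08 and the sodium pump gene Atpalpha by 1.01 on the log2 scale. Leaving out MB10 replicate 1 or 3 took Atpalpha just under the threshold, to 0.99 and 1.00. The cadherin gene shg (0.53) and Nrx-IV (0.35) were higher without reaching the fold threshold, and kune had a log2 fold change of 0.16 (adjusted p = 0.198).

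**Figure D2:**
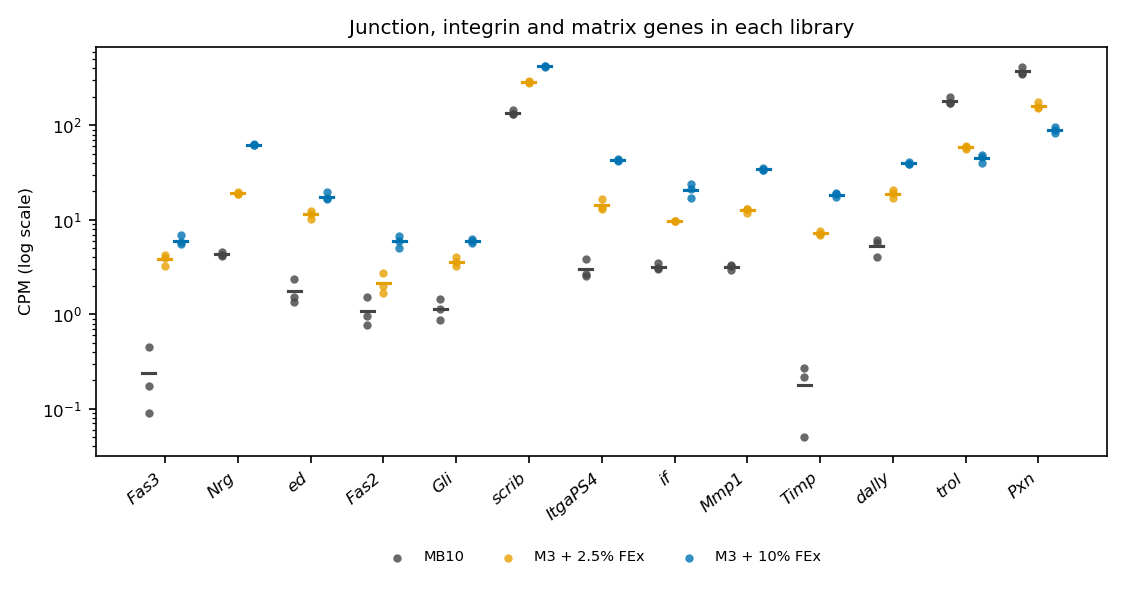
CPM on a log scale of 13 junction, integrin and matrix genes in each of the 9 libraries. Points are libraries, bars are the means of 3, and colours give the medium. In 11 of the genes M3 + 10% FEx is the highest group, while trol and Pxn fall from MB10 to the extract media.

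Integrins join the cell to the matrix. Of 21 genes for integrins and their adhesion complex, 3 were called higher (14.3%, against 7.34% of all genes) and none lower. Without the fold threshold 13 were higher (61.9%, against 25.5%) and 1 lower, with a median log2 fold change of 0.38. The called genes encode integrin subunits. The alpha subunit gene ItgaPS4 was at 2.56, 3.84 and 2.71 CPM in MB10 and at 41.8, 42.8 and 44.3 CPM in M3 + 10% FEx (log2 fold change 3.81, standard error 0.14, adjusted p = 7.91e-10). The alphaPS2 gene if rose by 2.69 and the beta subunit gene Itgbn by 2.01 on the log2 scale. The common beta subunit gene mys was at 254, 261 and 245 CPM in MB10 and at 434, 423 and 432 CPM in M3 + 10% FEx, a smaller change of 0.76 that did not reach the fold threshold. Dystroglycan, encoded by Dg, is another matrix receptor, and its gene rose by 1.01. Leaving out M3 + 10% FEx replicate 3 or MB10 replicate 3 took Dg to 0.98 and 0.93. Both the spectraplakin gene shot, which ties actin to microtubules (1.33), and Abl, a tyrosine kinase of the cell cortex (1.29), were called higher. The beta-heavy spectrin gene kst went the other way, from 1156, 1268 and 1084 CPM to 397, 404 and 345 CPM (log2 fold change -1.61, standard error 0.09), as did the gelsolin gene Gel (-1.16). The genes Dg, shot, Abl, kst and Gel were chosen after their values were seen.

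In the matrix itself, 7 of 23 tested genes were called higher and 3 lower, with a median log2 fold change of 0.04, so the list had no common direction. The metalloprotease gene Mmp1 (arm 2R from 24671294 to 24688184) stood at 3.37, 3.24 and 2.98 CPM in MB10 and at 35.1, 33.7 and 33.8 CPM in M3 + 10% FEx (log2 fold change 3.42, standard error 0.09, adjusted p = 5.82e-11), and its exons overlap those of Pof on the opposite strand. Its inhibitor gene Timp, named above, moved in the same direction from 0.0503, 0.216 and 0.271 CPM to 18.7, 17.4 and 19.0 CPM. The other metalloprotease gene, Mmp2, was far more abundant and rose by 1.11, from 311, 331 and 291 CPM to 662, 665 and 686 CPM.

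The glypican genes dally and dlp, whose proteins hold growth factors at the cell surface, rose by 2.90 and 1.78 on the log2 scale. Sulf1, which encodes a heparan sulfate 6-O-sulfatase and was chosen after its values were seen, rose by 2.36, from 44.2, 50.6 and 44.8 CPM to 228, 240 and 251 CPM. Multiplexin, a collagen encoded by Mp, had 2, 3 and 4 counts in the MB10 libraries and 58, 39 and 38 counts in those of M3 + 10% FEx. In contrast, the perlecan gene trol (-2.03), the peroxidasin gene Pxn (-2.08) and the glutactin gene Glt (-1.44) were called lower. The type IV collagen genes were scarce in this line. The mean of Col4a1 was 4.50 CPM in MB10 against 2.78 CPM in the extract medium (log2 fold change -0.70, adjusted p = 0.00442), and vkg had a log2 fold change of -0.22 (adjusted p = 0.304).

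Surface proteins best known from neurons were mixed. Of 12 tested Beat, Side, Dpr and DIP genes, 4 were called higher and 1 lower. For beat-IIIc, a member of the Beat family of axon guidance proteins, MB10 held 0, 1 and 0 counts and M3 + 10% FEx 137, 149 and 150 counts. That is a ratio of 400 with an exact 95% interval of 71.3 to 15816, which covers counting error only. For dpr17 the counts were 0, 0 and 1 against 20, 16 and 16. The immunoglobulin gene dpr7 fell from 48.4, 41.7 and 34.0 CPM to 12.8, 12.8 and 12.4 CPM (log2 fold change -1.70). Of 22 adhesion and guidance genes, 5 were called higher (Toll-7, NetB, robo2, sli and tutl) and 1 lower (Sema5c). The Slit receptor gene robo2 was at 52.7, 57.9 and 51.9 CPM in MB10 and 149, 151 and 138 CPM in M3 + 10% FEx, and its ligand gene sli rose by 1.38. Both groups were separate for each gene. Overlapping noncoding genes lie on both strands of robo2.

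Heat shock genes fell in M3 + 10% FEx. These genes encode chaperones, proteins that hold or refold damaged proteins, and the transcription factor Hsf drives them when unfolded proteins build up. Of 23 tested, 8 were called lower (34.8%, against 3.63% of all genes) and none higher, with a median log2 fold change of -0.47. The Hsp70 copies, which may share reads, gave 6 of these calls. Without them 2 of 17 were called lower, Hsp68 and Hsp26, with 8 lower and 1 higher without the fold threshold and a median of -0.32. The 6 inducible Hsp70 genes lie in 2 clusters on arm 3R, Hsp70Aa and Hsp70Ab between 11954163 and 11960909 and the 4 others between 12465453 and 12511461. They are near-identical copies, and the sources do not say how reads that fit several copies were counted, so their sum is the firmer value. Summed, they stood at 435, 657 and 844 CPM in MB10 and at 139, 97.3 and 104 CPM in M3 + 10% FEx, which is 5.68-fold lower. The groups did not overlap, although the MB10 libraries spread widely. M3 + 2.5% FEx was at 842, 647 and 721 CPM, within the range of MB10. Taken singly, the copies had log2 fold changes from -2.46 to -2.52 against MB10 and from -2.61 to -2.74 against M3 + 2.5% FEx, with adjusted p-values of at most 1.02e-05.

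**Figure D3:**
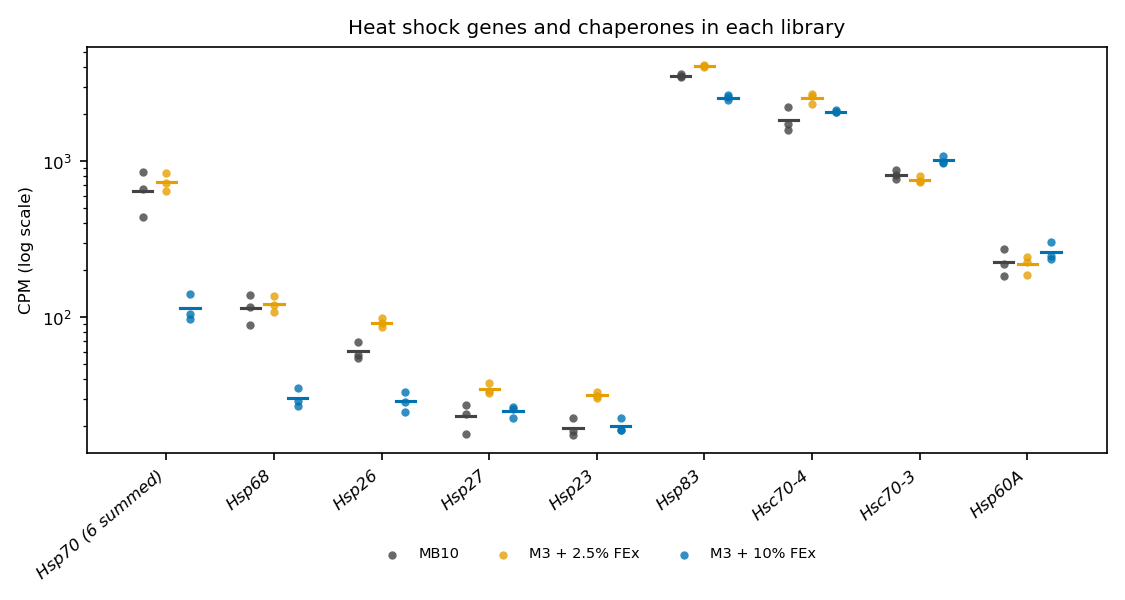
CPM on a log scale of heat shock genes and constitutive chaperone genes in each of the 9 libraries, with the 6 Hsp70 copies summed. Points are libraries, bars are the means of 3, and colours give the medium. Summed Hsp70, Hsp68, Hsp26 and Hsp83 are lowest in M3 + 10% FEx, and Hsc70-4 overlaps between M3 + 10% FEx and MB10.

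Hsp68, another inducible member of the Hsp70 family, stood at 88.2, 115 and 138 CPM in MB10 and at 35.3, 26.9 and 29.0 CPM in M3 + 10% FEx (log2 fold change -1.90, standard error 0.16, adjusted p = 1.05e-06), and its exons overlap CG6000 and a noncoding gene on the opposite strand. The small heat shock protein gene Hsp26 fell by 1.06 on the log2 scale. It lost the fold threshold, at -0.96, without M3 + 10% FEx replicate 2 or MB10 replicate 3. The Hsp90 gene Hsp83 was lower without reaching the threshold, from 3434, 3514 and 3588 CPM to 2458, 2644 and 2557 CPM (-0.46, adjusted p = 0.000645). The co-chaperone gene DnaJ-1 (-0.47) and Hsp22 (-0.51) behaved alike. In contrast, Hsp23 (0.04), Hsp27 (0.11), the cognate gene Hsc70-4 (0.17) and the mitochondrial chaperone gene Hsp60A (0.21) had adjusted p-values from 0.243 to 0.776. Hsf itself was at 97.8, 100.1 and 89.8 CPM in MB10 and 109, 104 and 113 CPM in M3 + 10% FEx (0.18, adjusted p = 0.0285). In the direct comparison with M3 + 2.5% FEx, 16 of the 23 genes were lower without the fold threshold and none higher, where 983 of all genes tested (11.3%) were lower.

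Chaperones of the endoplasmic reticulum did not follow. Of 25 genes for these chaperones and the unfolded protein response, 14 were higher and 2 lower without the fold threshold (median log2 fold change 0.22), and 1 was called, the stress sensor gene Atf6 (-1.36). Atf6 was at 45.4, 54.3 and 33.8 CPM in MB10 and at 16.8, 17.0 and 18.5 CPM in M3 + 10% FEx. The response factor gene Xbp1 (0.81), the BiP gene Hsc70-3 (0.31) and the sensor gene Ire1 (0.46) were higher. Against M3 + 2.5% FEx, 10 of the 25 were higher and none lower at the adjusted p threshold, which 913 of all genes tested (10.5%) passed in that direction.

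The rest of the machinery that makes and removes proteins moved little. Of 86 cytosolic ribosomal protein genes tested, 1 was called: RpS19b, a paralog, at 121, 93.9 and 107 CPM in MB10 and 35.3, 30.8 and 35.1 CPM in M3 + 10% FEx (log2 fold change -1.67). Its partner RpS19a, whose sequence is related, had a log2 fold change of -0.09 (adjusted p = 0.591). No member was called by edgeR or by DESeq2 in 4 lists. An unadjusted p below 0.05 was reached by 27.6% of all genes as higher and by 30.5% as lower. At that level, 4 of 23 ribosome biogenesis genes were higher and 5 lower, and 9 of 20 aminoacyl-tRNA synthetase genes were higher and 1 lower. At the same level, 9 of 23 autophagy genes were higher and 4 lower, and 8 of 18 vacuolar ATPase genes were higher and 1 lower. Of 34 proteasome genes, 13 were lower without the fold threshold and none higher, with a median of -0.19. Rpt3R, a paralog of the ATPase gene Rpt3, was called lower, from 12.5, 13.5 and 11.9 CPM to 2.16, 2.03 and 2.07 CPM (-2.59, standard error 0.12). Rpt3 itself had a log2 fold change of -0.15 (adjusted p = 0.196).

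The nascent polypeptide-associated complex sits on ribosomes and shields new protein chains. Its main subunits, encoded by bic (log2 fold change 0.13, adjusted p = 0.364) and Nacalpha (-0.14, adjusted p = 0.384), had groups that overlapped. The testis-type beta subunit genes on the X chromosome, betaNACtes1, betaNACtes2, betaNACtes3, betaNACtes4 and betaNACtes6, were all called lower, with log2 fold changes from -3.31 to -4.06. They are similar copies between 14171487 and 14381416, so reads may be split among them. Summed with betaNACtes5, they stood at 53.2, 49.2 and 53 CPM in MB10 and at 4.04, 3.56 and 3.81 CPM in M3 + 10% FEx. The sum was lower still in M3 + 2.5% FEx, at 1.69, 2.47 and 2.32 CPM. Like RpS19b and Rpt3R, these copies fell while the test did not pass for the broadly expressed partner genes.

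Of 13 amino acid transporter genes, 4 were called higher and none lower, and 10 were higher without the fold threshold (median log2 fold change 0.65). CG7888, annotated as an amino acid transporter, was at 5.98, 6 and 3.79 CPM in MB10 and at 32.6, 33.2 and 33.6 CPM in M3 + 10% FEx (2.65, standard error 0.13, adjusted p = 1.08e-08). CG1607 rose by 4.05, from 0.754, 0.475 and 0.631 CPM to 10.6, 10.1 and 10.0 CPM. The glutamate transporter gene Eaat1 (2.23) and CG13248 (1.44) were higher at under 2 CPM. Exons of CG7888 overlap CG6321 on the opposite strand.

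Trehalose is the main blood sugar of flies. Of 10 genes for its transport and that of other sugars, 4 were called higher and none lower. The trehalose transporter genes Tret1-1 and Tret1-2 are neighbouring paralogs. Their summed level in MB10 was 16.3, 14.7 and 13.6 CPM. It was 45.9, 44.8 and 41.9 CPM at 2.5% extract and 102, 87.4 and 103 CPM at 10%. The 3 media did not overlap, and both genes were higher at 10% than at 2.5% in the direct comparison (log2 fold changes 1.11 and 1.19, adjusted p at most 1.05e-05). Glut1 rose by 1.63 at under 1 CPM, and CG1208 by 2.61 from 3, 3 and 0 counts to 16, 7 and 19 counts.

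Glycolysis genes shifted upward. Of 16 tested, 2 were called higher (12.5%, against 7.34% of all genes). Without the fold threshold 9 were higher (56.25%, against 25.5%) and none lower, with a median log2 fold change of 0.32. The triose phosphate isomerase gene Tpi was at 14.2, 13.4 and 20.6 CPM in MB10 and at 48.5, 41.3 and 48.8 CPM in M3 + 10% FEx (1.52, standard error 0.15, adjusted p = 5.86e-06). The lactate dehydrogenase gene Ldh was at 23.7, 21.3 and 18.4 CPM and at 44.1, 39.6 and 75.9 CPM. Its log2 fold change of 1.33 was 0.99 without M3 + 10% FEx replicate 3, the library of the highest value. The aldolase gene Ald1 (0.92), the phosphofructokinase gene Pfk (0.89), the enolase gene Eno (0.79) and Gapdh2 (0.76) were higher, and PyK, for the last step, had a log2 fold change of 0.05 (adjusted p = 0.754). Against M3 + 2.5% FEx, 10 of the 16 were higher and none lower without the fold threshold, where 10.5% of all genes were higher. The glycogen phosphorylase gene Glyp, which feeds the pathway and was chosen after its values were seen, rose by 1.48, from 16, 15.4 and 17.9 CPM to 45.3, 39.3 and 52.8 CPM.

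Malic enzyme, which makes NADPH from malate, is encoded by Men. It was the 1 called gene of 21 in the tricarboxylic acid cycle list, at 210, 210 and 240 CPM in MB10 and 490, 462 and 470 CPM in M3 + 10% FEx (log2 fold change 1.11). No gene of the pentose phosphate pathway was called in 7 tested by edgeR or DESeq2, and 1 was higher and 2 lower at an unadjusted p below 0.05. Fatty acid synthesis genes were higher without the fold threshold in 9 of 17 and lower in 2. Among them, SREBP, for a transcription factor of lipid synthesis genes, rose from 548, 578 and 592 CPM to 995, 929 and 952 CPM (0.74, adjusted p = 5.27e-06), and the fatty acid synthase gene FASN1 had a log2 fold change of 0.52. The diacylglycerol acyltransferase gene mdy, which acts at the last step of fat synthesis, was called lower (-1.30).

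Of 21 genes for lipid storage, uptake and sterol handling, 5 were called higher and 2 lower. The lipophorin receptor gene LpR2 rose from 6.64, 10.2 and 7.53 CPM to 36.8, 34.1 and 37.3 CPM (log2 fold change 2.14, standard error 0.13), and its paralog LpR1 rose by 2.39 at about 2 CPM. The fatty acid transport gene Fatp3 (3.26), the lipase gene Lip4 (3.21) and the sterol carrier gene Npc2b (1.05, or 1.00 and under the threshold without M3 + 10% FEx replicate 2) were called higher. Among genes of lipid-carrying particles, Apoltp fell from 56.2, 73.7 and 49.1 CPM to 13.8, 11.4 and 11 CPM (-2.30) and apolpp fell from 13.9, 14.6 and 9.97 CPM to 3.79, 4.82 and 5.40 CPM (-1.47). The scavenger receptor gene crq (0.06, adjusted p = 0.621) and Fatp1 (0.00, adjusted p = 0.964) did not pass the test, and Npc2f, a relative of Npc2b, was lower (-0.69, adjusted p = 0.0388).

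The amino acid response factor ATF4 and the TOR pathway report nutrient supply. Of 23 genes for ATF4 targets and amino acid synthesis, 3 were called higher and 2 lower. Thor, a translation repressor that FOXO and ATF4 induce, was at 13.6, 12.1 and 12.4 CPM in MB10 and 35.9, 35.5 and 39.4 CPM in M3 + 10% FEx (log2 fold change 1.54, standard error 0.09). The TOR inhibitor gene chrb rose by 1.01 and fell to 0.96 and 0.86 without M3 + 10% FEx replicate 2 or MB10 replicate 3. The glutamine synthetase genes parted: Gs2 rose by 2.04 to a mean of 8.85 CPM, and the more abundant Gs1 fell by 1.13, from 229, 201 and 233 CPM to 113, 95.1 and 94.7 CPM. CG11899, annotated with serine synthesis, fell by 1.32. The ATF4 gene crc had a log2 fold change of 0.34 (adjusted p = 0.00243). In the insulin and TOR list, 2 of 21 were called higher (Thor and the kinase gene Pdk1, 1.04, or 0.99 without MB10 replicate 3), and the receptor gene InR (0.63) and foxo (0.45) were higher under the threshold.

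RNAs of the mitochondrial genome were lower in M3 + 10% FEx, but their size rested partly on MB10 replicate 1. Mitochondrially encoded RNA made up 12.4%, 8.57% and 8.20% of the counts in MB10 and 7.98%, 7.26% and 6.85% in M3 + 10% FEx, so the groups did not overlap with or without MB10 replicate 1. Of 27 genes tested, 13 were called lower and none higher, and 10 were called without MB10 replicate 1. The library kit selects polyadenylated RNA, so these values are what that selection carried along. The transfer RNAs fell most. Summed over 22 genes, they were at 75.2, 45.0 and 43.6 CPM in MB10 and 17.5, 14.5 and 12.2 CPM in M3 + 10% FEx. The libraries of M3 + 2.5% FEx lay between these groups at 22.8, 30.6 and 28.8 CPM. Of 12 tested, 11 were called lower (median log2 fold change -1.58), and without MB10 replicate 1 there were 9 (median -1.29).

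The 13 mitochondrial messenger RNAs changed less, with 1 called (mt:ATPase8, -1.15) and a median of -0.37, or of -0.11 without MB10 replicate 1. The libraries for mt:CoI, a subunit of cytochrome c oxidase, overlapped at 15479, 11962 and 10563 CPM in MB10 and 11734, 10533 and 10116 CPM in M3 + 10% FEx (log2 fold change -0.23, or -0.05 without MB10 replicate 1). The large ribosomal RNA mt:lrRNA was at 65836, 37106 and 40445 CPM and at 36982, 33945 and 30858 CPM (log2 fold change -0.49, adjusted p = 0.0744), and its change was -0.18 (adjusted p = 0.413) without MB10 replicate 1. The small ribosomal RNA mt:srRNA was called at -1.01 and was at -0.74 without MB10 replicate 1. For mt:ATPase8, leaving out M3 + 10% FEx replicate 2 or 3 gave -0.97 and -0.86, with adjusted p-values of 0.0829 and 0.0723, and leaving out MB10 replicate 1 gave -1.20.

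**Figure D4:**
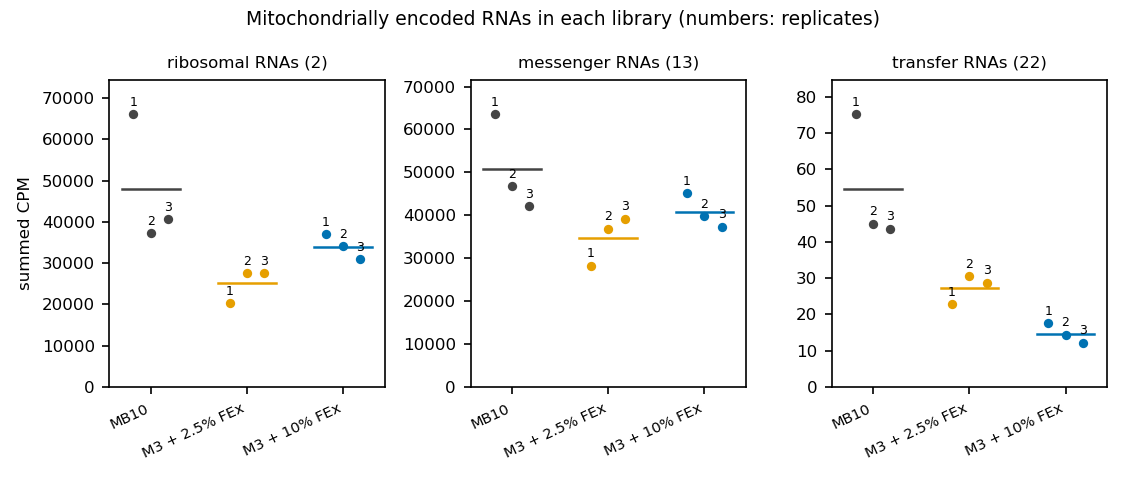
Summed CPM of the mitochondrial ribosomal, messenger and transfer RNAs in each of the 9 libraries, on linear axes from 0. Numbers give the replicate and bars the mean of 3. MB10 replicate 1 is the highest library in all panels, and the transfer RNAs of M3 + 10% FEx, at 12.2 to 17.5 CPM, lie below every library of the other media.

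Nuclear genes for mitochondria had small downward shifts. Of 75 mitochondrial ribosomal protein genes, 37 were lower without the fold threshold (49.3%, against 27.6% of all genes), and none was higher (median log2 fold change -0.30). None was called by edgeR or DESeq2, and 41 were lower at an unadjusted p below 0.05. The largest change was that of mRpL33, from 39.7, 38.7 and 36.1 CPM to 18.8, 21.4 and 19.6 CPM (-0.94, adjusted p = 4.36e-06). Of 72 nuclear respiratory chain genes, 27 were lower (37.5%, against 27.6% of all genes) and 1 higher without the fold threshold, with a median of -0.27. None was called by edgeR or DESeq2. At an unadjusted p below 0.05, 31 were lower and 1 higher, where 30.5% of all genes were lower. ND-49, for a subunit of complex I, lay just outside the fold threshold, at 344, 359 and 306 CPM in MB10 and 168, 175 and 163 CPM in M3 + 10% FEx. Without M3 + 10% FEx replicate 2 or MB10 replicate 3, ND-49 passed the threshold, with -1.06 for the latter. Fatty acid oxidation held 1 called gene of 12, Acox57D-d (1.15), which was at 0.94 without MB10 replicate 2.

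**Figure D5:**
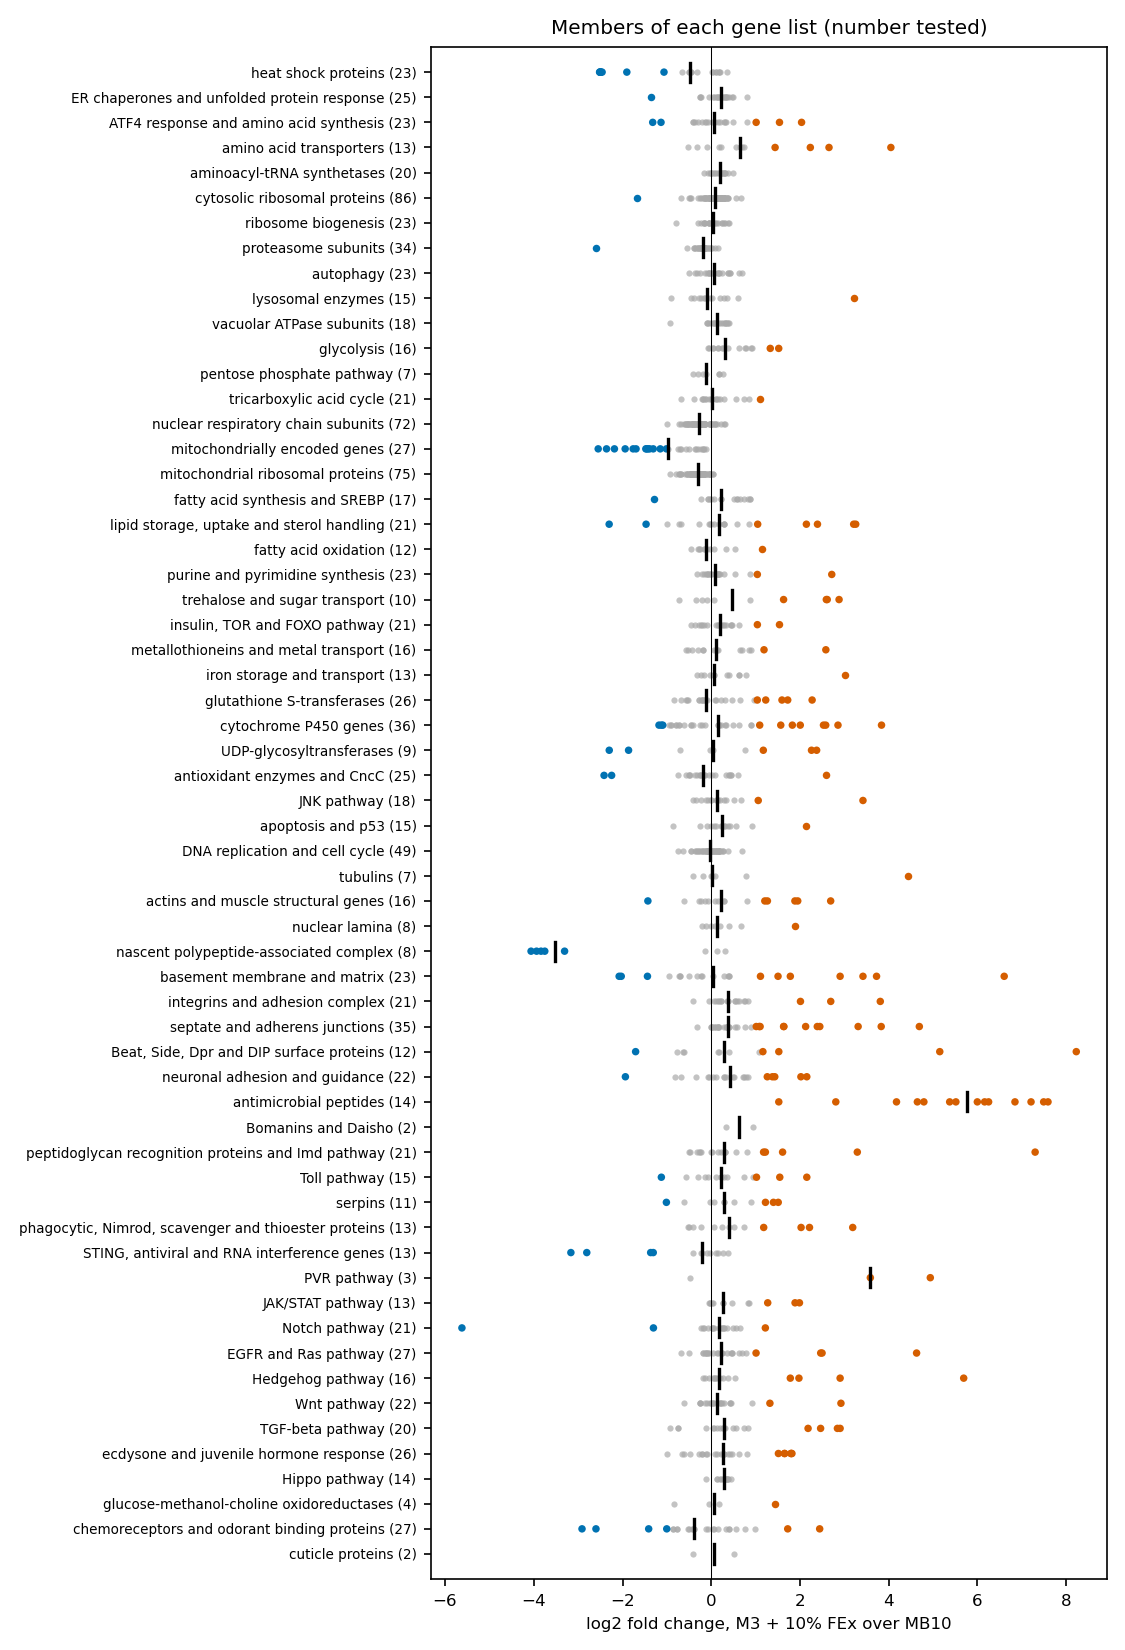
Log2 fold change of M3 + 10% FEx over MB10 for every tested member of 60 gene lists, with the number tested in brackets. Each point is a gene, orange and blue mark members called higher and lower, and black bars are medians. Heat shock and testis-type beta subunit genes lie to the left, antimicrobial peptide genes to the right, with a median of 5.76, and most lists centre near 0.

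Detoxification genes moved in both directions. Of 36 cytochrome P450 genes tested, 8 were called higher and 3 lower, and 5 were called lower without MB10 replicate 3. Under the filter of 10 counts in every library, 1 was called higher. Without the fold threshold 11 were higher (30.6%, against 25.5% of all genes) and 10 lower (27.8%, against 27.6%). Cyp6a20 rose to the highest level of the called members, from 29.4, 31.1 and 23.4 CPM to 99.9, 97.1 and 100.6 CPM (log2 fold change 1.83). The gene shd, whose product makes active 20-hydroxyecdysone, rose by 2.01 at under 1 CPM. Of 26 glutathione S-transferase genes, 5 were called higher (19.2%) and none lower, with a median of -0.12. Without the fold threshold 9 were higher (34.6%, against 25.5% of all genes) and 8 lower (30.8%, against 27.6%). Without M3 + 10% FEx replicate 3, 3 were called higher. GstE2 rose by 2.27, from 13.6, 15.1 and 12.8 CPM to 58.3, 69.2 and 73.9 CPM. GstE1 passed in the model of all libraries, but its groups overlapped and DESeq2 did not call it. Of 9 UDP-glycosyltransferase genes, 3 were called higher and 2 lower, among them Ugt317A1, which fell from 173, 181 and 172 CPM to 46.6, 48.4 and 49.7 CPM (-1.86, standard error 0.06).

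Among antioxidant genes, 12 of 25 were lower and 7 higher without the fold threshold. The peroxiredoxin genes Prx6b and Prx6c, near-identical neighbours on arm 2R, fell by 2.42 and 2.25 on the log2 scale. Summed with CG12896 of the same cluster, they were at 117, 110 and 141 CPM in MB10 and 24.8, 24.7 and 24.5 CPM in M3 + 10% FEx. Their levels in M3 + 2.5% FEx, 32.3, 31.0 and 28.4 CPM, were close to those at 10%. The oxidase gene Duox, which makes hydrogen peroxide, rose by 2.60 to about 1 CPM. The regulator gene cnc had a log2 fold change of 0.33 (adjusted p = 0.00462).

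Of 16 metallothionein and metal transport genes, 2 were called higher (foi and Zip71B) and none lower. The metallothionein gene MtnA was at 51.3, 37.0 and 42.7 CPM in MB10, at a mean of 10.8 CPM in M3 + 2.5% FEx and at 63.2, 48.8 and 93.9 CPM in M3 + 10% FEx. Its libraries overlapped with those of MB10 (log2 fold change 0.65, adjusted p = 0.0123) and were apart from M3 + 2.5% FEx (2.67, adjusted p = 5.26e-06). The zinc transporter gene foi rose by 1.19 against MB10. Ferritin stores iron, and its heavy chain gene Fer1HCH was at 731, 673 and 715 CPM in MB10 and 1101, 1036 and 1512 CPM in M3 + 10% FEx (0.78, adjusted p = 0.000204). The transferrin gene Tsf1 had 1, 2 and 4 counts in MB10 and 33, 13 and 19 counts in M3 + 10% FEx. MtnA and Fer1HCH were chosen after their values were seen.

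Of 15 genes for apoptosis and p53, 9 were higher without the fold threshold (60.0%, against 25.5% of all genes) and 2 lower. The death inducer gene rpr rose from 11.4, 11.6 and 11.1 CPM to 49.7, 50.5 and 51.0 CPM (log2 fold change 2.15, standard error 0.08, adjusted p = 1.01e-09). It was the 1 called gene of the list, to which leaving out M3 + 10% FEx replicate 1 or MB10 replicate 1 added 1 more. The inhibitor gene Diap1 had a log2 fold change of 0.29 (adjusted p = 0.000937). Of 49 replication and cell cycle genes, none was called by edgeR or by DESeq2, and 12 were lower and 8 higher at an unadjusted p below 0.05, both under the shares of all genes. The mitotic kinase gene Cdk1 was the furthest, from 134, 126 and 119 CPM to 75.3, 80.4 and 71.6 CPM (-0.74), and PCNA had a log2 fold change of 0.17 (adjusted p = 0.172). Among structural genes, the alpha tubulin gene alphaTub85E rose by 4.44 to about 3.5 CPM. Of 16 actin and muscle genes, 5 were called higher and 1 lower, and the Z-disc gene Zasp52 was the most abundant of them, at 58.2, 66.7 and 60.9 CPM in MB10 and 205, 235 and 248 CPM in M3 + 10% FEx (1.89). The lamin gene LamC rose by 1.88.

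Antimicrobial peptides kill bacteria and fungi and are induced through the Imd and Toll pathways, which sense peptidoglycan and proteases. Of 24 genes for them, 14 passed the expression filter. All 14 were called higher (median log2 fold change 5.76, or 5.44 with AttC at its lower bound), against 7.34% of all genes. Summed, the 24 stood at 9.55 to 13.3 CPM in MB10 and at 801 to 842 CPM in M3 + 10% FEx. Under the filter of 10 counts, which removes genes near 0 in 1 medium, 5 were called higher. The 14 of 14 thus rests partly on which genes entered the test. AttC had no count in MB10 and 16, 7 and 6 counts in M3 + 10% FEx, which is at least 8.86-fold higher against 3 counts over the group. In the direct comparison, 9 of the 14 were lower at 10% than at 2.5% extract and none was higher. CecA1 and CecA2, near-identical, summed to 127, 122 and 120 CPM at 10% and to 290, 306 and 307 CPM at 2.5%, with 2.31, 1.21 and 1.76 CPM in MB10. The inducible receptor gene PGRP-LB (3.29) and the negative regulator gene pirk (1.61) rose too, and each was lower at 10% than at 2.5% (-1.63 and -0.80). The membrane receptor gene PGRP-LC was lower than in MB10 (-0.50, adjusted p = 0.00417), and the factor gene Rel was higher (0.56). In the Toll list, the inhibitor gene cact rose from 74.5, 74.1 and 82.9 CPM to 211, 229 and 236 CPM (1.54), while the factor gene Dif fell by 1.12 and the receptor gene Tl had a log2 fold change of 0.10 (adjusted p = 0.369).

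In the antiviral list, which also holds RNA interference genes, the called genes moved the opposite way. STING, a sensor of cyclic dinucleotides, and the receptors that make them guard flies against viruses. Of 13 genes tested, 4 were called lower (30.8%, against 3.63% of all genes) and none higher (median log2 fold change -0.22). Without the fold threshold 6 were lower (46.2%, against 27.6%) and 2 higher (15.4%, against 25.5%). Summed over the list, the media overlapped, at 2440 to 2567 CPM in MB10 and 2445 to 2521 CPM in M3 + 10% FEx. Nazo (arm 3R from 8287876 to 8288613), a target of STING, was at 64.0, 58.6 and 66.4 CPM in MB10 and at 7.23, 6.85 and 6.99 CPM in M3 + 10% FEx (-3.16, standard error 0.08, adjusted p = 4.62e-11). The nucleotide-making receptor gene cGlr2 fell from 11.7, 11.8 and 12.2 CPM to 1.70, 1.85 and 1.54 CPM (-2.81). The antiviral gene pst (-1.37) and Srg3 (-1.31) were called lower as well. Sting itself was at 254, 277 and 228 CPM in MB10 and 208, 218 and 217 CPM in M3 + 10% FEx (-0.24, adjusted p = 0.0267).

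Of 13 tested genes for Nimrod, scavenger and thioester proteins, which serve in phagocytosis, 4 were called higher and none lower. Tep2, a thioester protein that coats microbes, rose from 29.5, 40.1 and 31.6 CPM to 148, 160 and 162 CPM (log2 fold change 2.21). The engulfment receptor gene drpr rose by 1.18, from 12.3, 12.2 and 13.4 CPM to 29.8, 28.0 and 28.1 CPM, and was higher than in M3 + 2.5% FEx (1.04, adjusted p = 3.28e-06). Of 11 serpin genes, 3 were called higher (Spn77Ba, Spn42De and Spn31A), which is 27.3%, against 7.34% of all genes. The 1 called lower was Spn42Db, whose call was lost under 8 of the alternative settings.

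The growth factor genes Pvf2 and Pvf3 rose, Pvf3 from 4.42, 3.80 and 2.84 CPM to 105, 113 and 120 CPM (log2 fold change 4.94), while their receptor gene Pvr was lower (-0.48, adjusted p = 0.0003). The cytokine gene upd3 (1.99) and the feedback gene Socs36E (1.89) were called higher, the receptor gene dome was at 0.86, and Stat92E overlapped between media (0.01, adjusted p = 0.919). Notch ligand Ser fell from 11.9, 11.9 and 12.1 CPM to 0.283, 0.225 and 0.193 CPM, and N itself was at -0.23. The FGF ligand gene pyr rose by 4.63, from 0.352, 0.346 and 0.451 CPM to 8.82, 9.87 and 10.2 CPM. Egfr stayed scarce, with 1, 5 and 2 counts in MB10 and 20, 11 and 20 counts in M3 + 10% FEx.

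The Hedgehog ligand gene hh had 0, 1 and 0 counts in MB10 and 34, 22 and 20 counts in M3 + 10% FEx, a ratio of 69.6 (exact 95% interval 12.1 to 2786). Its pathway target and receptor gene ptc (0.04, adjusted p = 0.689) and smo (0.16, adjusted p = 0.192) overlapped between the media. The BMP modulator gene cv-2 rose from 12.3, 13.2 and 13.4 CPM to 97.1, 85.4 and 97.0 CPM (2.84, standard error 0.08), and sog and Fs, which bind TGF-beta ligands, rose at about 1 CPM. Of 22 Wnt genes tested, 2 were called higher (9.09%, against 7.34% of all genes) and none lower. These were the feedback gene nkd (2.92) and the receptor gene fz2 (1.32). Of 26 ecdysone and juvenile hormone genes, 6 were called higher and none lower, among them the steroid-induced factor gene Eip93F, from 3.22, 3.46 and 3.56 CPM to 11.2, 11.5 and 9.55 CPM (1.66). The ecdysone receptor gene EcR was at -0.28 and its partner usp at 0.13 (adjusted p = 0.138). Of 14 Hippo pathway genes, none was called by edgeR or DESeq2, and 12 were higher and 1 lower at an unadjusted p below 0.05, where 27.6% of all genes were higher and 30.5% lower.

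Markers set the blood cell identity of the line beside these changes. In bulk RNA, fewer cells of a type and less RNA per cell cannot be told apart. Of 12 plasmatocyte markers tested, 2 were called lower (Pxn and Hml) and 1 higher (He). Without the fold threshold 7 were lower (58.3%, against 27.6% of all genes) and 2 higher (16.7%, against 25.5%). Under the filter of 10 counts, 0 were called higher. The abundant ush was at 314, 386 and 308 CPM in MB10 and at 468, 534 and 533 CPM in M3 + 10% FEx. Hml, for the clotting protein hemolectin, was at 12.1, 14.5 and 9.47 CPM in MB10 and 3.33, 3.65 and 2.70 CPM in M3 + 10% FEx, and it was unlike M3 + 2.5% FEx, where the mean was 13.5 CPM (direct comparison -2.06, adjusted p = 5.13e-06). The blood cell factor gene srp was at 286, 295 and 289 CPM and at 216, 237 and 236 CPM (-0.34). Of 5 crystal cell markers tested, 3 were called higher (lz, PPO1 and Men) and 1 lower (peb, -2.16). Under the filter of 10 counts, which removes lz and PPO1, 1 was called higher. Men is also the called gene of the tricarboxylic acid cycle list, and PPO1 had 11 counts over the MB10 libraries. The factor gene lz had 0, 1 and 0 counts in MB10 and 57, 44 and 43 counts in M3 + 10% FEx. The libraries for PPO2 overlapped, at 1.99 to 4.19 CPM in MB10 and 3.18 to 3.86 CPM in M3 + 10% FEx. Of 6 lamellocyte markers tested, 3 were called higher (atilla, ItgaPS4 and cher) and none lower. For atilla the counts were 1, 0 and 0 against 48, 46 and 40. The more abundant PPO3 overlapped between the media, at 15.2 to 27.5 CPM in MB10 and 20.3 to 23.7 CPM in M3 + 10% FEx.

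Markers of other cell types ranged from absent to well expressed. At most 1 CPM in every library was found for 6 of 12 neuron, 4 of 9 glia, 2 of 7 epithelial and 6 of 12 germline markers. The neuronal factor gene elav (37.5 to 39.4 CPM in M3 + 10% FEx), the glial genes moody (128 to 147 CPM), nrv2 and pnt, and the germline gene aub (247 to 254 CPM) were expressed in every medium. Of 9 neuron markers tested, brp, Syt1 and Gad1 were called higher, each at under 1.4 CPM, and 1 was lower without the fold threshold. The median log2 fold change of these markers was 0.07. The more abundant para was at 4.69 to 6.05 CPM in MB10 and at 3.13 to 3.61 CPM in M3 + 10% FEx. Under the filter of 10 counts no neuron marker was called higher. Leaving out single libraries ended the call of Syt1 in 3 cases and that of Gad1 in 2. ChAT and VGlut did not pass the expression filter. The glial fate genes repo, gcm and gcm2 did not pass it either. Of 5 glia markers tested, 2 were called higher and none lower, where 7.34% of all genes were called higher. These were Gs2 and Eaat1, which are also called members of lists above. Without the fold threshold 3 glia markers were higher and none lower. Under the filter of 10 counts 1 glia marker was called higher. The epithelial factor gene grh did not pass the expression filter, although Fas3, crb and ovo of that list were called higher. Under the filter of 10 counts 1 epithelial marker was called higher. Of 27 chemoreceptor and odorant binding genes tested, 2 were called higher (ppk17 and Obp18a, 7.41%, against 7.34% of all genes) and 4 lower (14.8%, against 3.63%). Without MB10 replicate 3, 4 were called higher. The sugar receptor gene Gr61a fell from 15.0, 13.7 and 15.8 CPM to 1.56, 2.34 and 2.07 CPM. Of 337 long noncoding RNA genes tested, 24 were called higher (7.12%, against 7.34% of all genes) and 39 lower (11.6%, against 3.63%). The median of the list was -0.16. Without the fold threshold 91 were lower (27.0%, against 27.6% of all genes) and 57 higher (16.9%, against 25.5%). Under the filter of 10 counts 20 were called lower and 9 higher.

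The direct comparison of the extract media called 211 genes (2.42%) higher and 91 (1.05%) lower at 10% than at 2.5% extract. Beside the heat shock, glycolysis and ER chaperone genes given above, 10 of 35 junction genes were higher and 3 lower without the fold threshold, a level that 10.5% of all genes passed as higher and 11.3% as lower. Of the 49 cell cycle genes, 12 were lower and 1 higher. Of 86 cytosolic ribosomal protein genes, 19 were higher and 1 lower at that level. Both extract lines descend from the same adaptation, and each comparison with MB10 shares the same MB10 libraries.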

How the data were processed

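The authors made stranded, poly(A)-selected libraries from S2R+ cells, mapped paired-end reads with HISAT2 2.1.0, counted them per gene with featureCounts 1.6.4 (FlyBase release 6 annotation) and deposited raw read counts; strand and multi-mapping settings are not given in the sources used here. From these counts, edgeR 4.0.16 (R 4.3.3) was run: TMM scaling, its expression filter, and the two-sided quasi-likelihood F test in 1 model of all 9 libraries. P-values were adjusted by Benjamini-Hochberg over 8705 genes. CPM values are TMM-scaled, and a standard error is the absolute change on the log2 scale divided by the square root of F. The script was tested on simulated counts. Count intervals and the 3-count floor cover counting error only. DESeq2 1.42.0, other scalings, filters and left-out libraries were alternatives.

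The comparison and its 71 gene lists were chosen with earlier results of these data known, so lists are described by counts and medians without a test. Named genes are the 12 largest rises and 12 largest falls at 10 CPM or more in the 3 libraries of the higher medium, up to 6 called members per list, up to 2 per list without calls, and hh, Egfr, upd3, Pvf2 and Ser. Others were chosen after their values were seen: the partner, receptor or regulator genes given beside a list's results, and those so marked. Positions are from Ensembl BDGP6.54, on the assembly of the authors' mapping. Exons of 83 of the 331 named genes overlap a gene on the opposite strand.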

Additional observations from a re-analysis of the deposited data

How the results depend on the processing

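The counts of genes higher and lower in M3 + 10% FEx than in MB10 (639 and 316) stayed within 1.5 times under every alternative run, with 1 exception. A filter of at least 10 counts in each of the 9 libraries gave 336 higher, 94 higher than M3 + 2.5% FEx and 58 lower than M3 + 2.5% FEx, because that filter removes genes that are near 0 in 1 medium. Without 1 library at a time the counts were 635 to 690 higher and 294 to 324 lower than MB10, and 184 to 228 higher and 73 to 99 lower than M3 + 2.5% FEx. DESeq2 called 753 and 308 against MB10, of which 625 and 286 were shared. Deviations of same-numbered libraries had correlations of 0.04, 0.07 and -0.07 between M3 + 10% FEx and MB10. They were 0.08, -0.02 and 0.02 between the extract media, and -0.17, -0.15 and -0.36 between M3 + 2.5% FEx and MB10. Such values cannot show whether same-numbered libraries were handled together. With the replicate block 633 and 313 genes were called against MB10, and 198 and 87 against M3 + 2.5% FEx. Among the named genes that block ended 2 calls, those of GstE1 (log2 fold change 1.62, adjusted p = 0.0515) and Act57B (1.25). Of the 73 counts of called list members, 35 changed by over 1.5 times under the filter of 10 counts, 0 to 6 under the other alternatives with all libraries, and 9 without 1 library, among them serpins called lower (0 to 2). No named gene that was called changed its sign. Of those not called, Hsp23, Hsp27, Nacalpha, PyK, RpS19a, Stat92E, ptc and Cht2 did when single libraries were left out. Calls near a threshold were lost most often for GstE1, Act57B, Spn42Db, Ir60b and mt:srRNA, and the cause was not tested. At this depth, genes under about 1 CPM rest on few counts per library.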

Other observations

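Further families, chosen after their values were seen and so given without a test of the family, also moved. Tetraspanins organize receptors in the membrane, and 7 of 20 tested were called higher and none lower. The neighbouring genes Tsp42Ea and Tsp42Ed of arm 2R rose from 15.9, 14.4 and 15.2 CPM to 128, 124 and 129 CPM (log2 fold change 3.07) and from 7.04, 7.65 and 7.94 CPM to 65.8, 65.2 and 63.8 CPM (3.10), and lbm, the late bloomer gene of the same cluster, rose by 2.33. Of 4 adenylyl cyclase genes, which make cyclic AMP, 3 were called higher. The rutabaga gene rut was at 19.7, 23.2 and 21.6 CPM in MB10 and 59.2, 57.4 and 57.3 CPM in M3 + 10% FEx (1.43). The Methuselah-like receptor gene mthl2 rose from 2.71, 2.64 and 1.53 CPM to 67.8, 74.7 and 72.9 CPM.

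Secreted growth factors of the chitinase-like family parted. Idgf6 fell from 589, 579 and 737 CPM to 163, 179 and 180 CPM (log2 fold change -1.87) and Idgf2 by 1.08 (-0.98 and -0.99, under the threshold, without M3 + 10% FEx replicate 1 or MB10 replicate 2), while Idgf5 rose by 1.94, from 7.79, 9.11 and 9.25 CPM to 32.7, 34.7 and 33.2 CPM. The neprilysin-like peptidase genes Nepl19 and Nepl20 fell by 2.23 and 2.96, from means of 182 and 213 CPM. The RNA of the signal recognition particle, 7SL, summed over 2 copies to 40.5, 27.5 and 45.2 CPM in MB10 and to 117, 94.4 and 74.6 CPM in M3 + 10% FEx. This RNA is not normally polyadenylated, and the library kit selects polyadenylated RNA.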
